A study of Mus musculus with 4 samples.

Results

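The protein tyrosine phosphatase genes of mouse splenic natural killer (NK) cells were examined for N6-methyladenosine (m6A) peaks. Members were all protein-coding mouse genes of the GRCm38 annotation named Ptpn with a number, or Ptpr with a letter and at most 1 digit. There were 37 such genes, 17 of the cytosolic Ptpn type and 20 of the receptor Ptpr type. Of these, 24 had at least 1 peak, and together they held 39 of the 20727 distinct peaks in the list. All cells were splenic NK cells of C57BL/6 mice, expanded in vivo by injecting the pLIVE-IL-15 plasmid and then sorted, so both groups share this exposure to IL-15. The labels name no mutant allele, age or sex, and do not say how many animals gave each library. From poly(A) RNA of these cells, cut into short fragments, came 2 libraries of RNA fragments pulled down with an m6A antibody (m6A_IP) and 2 libraries of untreated fragments (input_RNA). The deposited list names no library, and how the 4 libraries entered it is not given. For each peak it holds a single fold enrichment, reads of the immunoprecipitate over the input. It also holds a single log10 p, more negative for a more significant peak. It gives no value per library, so no error between replicates can be stated and no difference below was tested.

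Protein tyrosine phosphatases remove phosphate from tyrosines and so oppose, or in some cases enable, the kinases that carry signals from receptors. In NK cells the family is best known through SHP-1, which is recruited to the phosphorylated ITIM motifs of inhibitory receptors, through SHP-2, which links cytokine and growth factor receptors to the RAS-ERK pathway, and through CD45, which keeps SRC family kinases ready to act. m6A is the most abundant internal mark of mRNA, is written by a complex with METTL3 at its centre, and is typically found in the sequence DRACH (D stands for any base but C, R for a purine and H for any base but G).

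All 11 NK cell markers examined had a peak, with a highest fold enrichment per gene from 1.36 to 3.28. Among markers of other spleen cells, 2 of 4 T cell genes (Cd3e and Cd3d) and 3 of 3 macrophage genes (Adgre1, Csf1r and Lyz2) had one, and of the B cell genes Cd79a had one and Ms4a1 had none. Their highest fold enrichments were 5.69 to 30.3 for the T cell genes, 7.59 for Cd79a and 1.38 to 1.9 for the macrophage genes, and the T cell genes Cd4 and Cd8a had no peak. A peak requires RNA but does not give its level, and the part of RNA from other cells in the values below was not tested.

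A peak was thus found in 24 of 37 members (64.9%), against 46.3% of all 21951 protein-coding genes. With a peak of log10 p at or below -3 the count was 19 of 37 (51.4%), against 34.0%. A strong peak, here one enriched at least 5-fold, was found in 11 of the 24 members (45.8%), against 43.4% of the 10174 coding genes with a peak, so the family lay close to the background in this respect. The threshold fell between the Ptpn18 peak at 5.06 and the Ptpn22 peak at 4.93. Over the 39 peaks the fold enrichment ranged from 1.34 in Ptpn12 to 140 in Ptpn18, with a median of 3.25, against 2.37 over all 18250 peaks of coding genes. Of the 24 members, 11 (45.8%) had more than 1 peak, against 46.7% of coding genes with a peak.

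**Figure D1:**
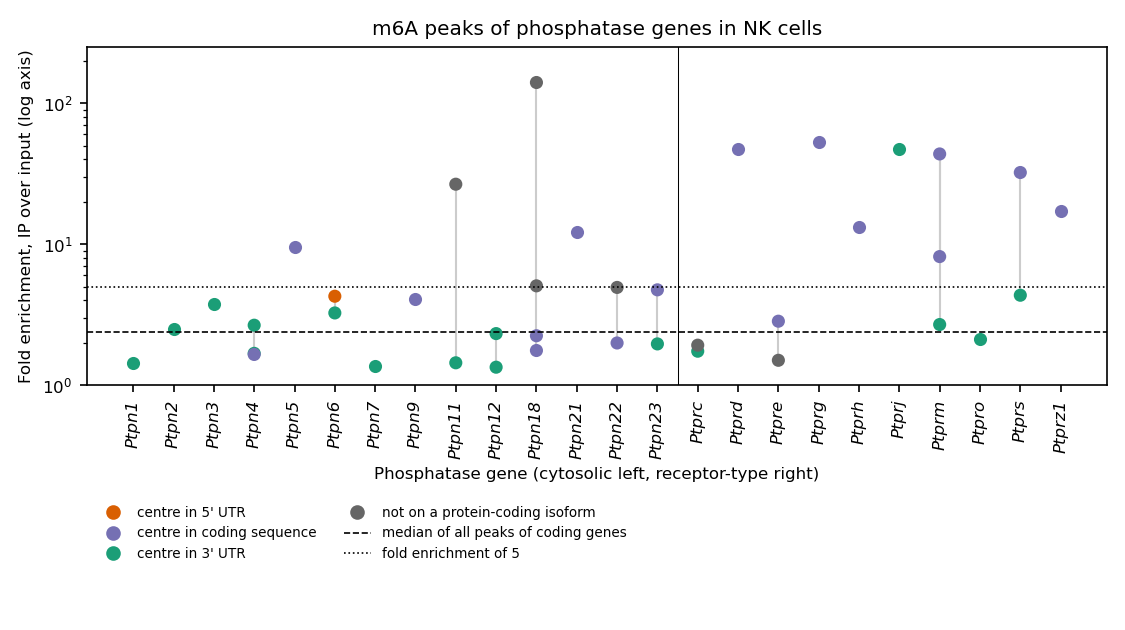
Fold enrichment of immunoprecipitate over input (log axis) for each of the 39 peaks, by gene, with 14 cytosolic members on the left and 10 receptor-type members on the right; colour gives where the centre of the peak lay, grey lines join peaks of 1 gene, and the dashed line is the median of all peaks of coding genes (2.37). The receptor-type members with a strong peak lie between 13.3 and 53.1 at their highest, and peaks centred in the 3' UTR lie under 5 except that of Ptprj at 47.4.

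Cytosolic members more often had a peak, and receptor-type members more often a strong one. Of 17 cytosolic members 14 had a peak and 4 had a strong one (Ptpn5, Ptpn11, Ptpn18 and Ptpn21). Of 20 receptor-type members 10 had a peak and 7 had a strong one (Ptprd, Ptprg, Ptprh, Ptprj, Ptprm, Ptprs and Ptprz1). The median fold enrichment was 2.58 over 24 cytosolic peaks and 8.16 over 15 receptor-type peaks. Genes are not replicates. Of members with a peak, the shares with a strong one had exact 95% intervals of 8.39 to 58.1% and 34.8 to 93.3%. These overlap, and both hold the share over all coding genes with a peak (43.4%). The shares with a peak were 82.4% (interval 56.6 to 96.2) and 50% (27.2 to 72.8), against 46.3% of all coding genes. These intervals also overlap, and that of the receptor-type members holds 46.3%.

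The SH2-domain phosphatases Ptpn11 (SHP-2) and Ptpn6 (SHP-1) each had 2 peaks, and these differed in kind. The first peak of Ptpn11 (ENSMUSG00000043733, minus strand) lay at chr5:121130683-121130833 in the last exon, exon 16 of 16. Its centre was 3410 nt past the stop codon in a 3' UTR of 3635 nt. It had a fold enrichment of 1.44, and 12.3% of all peaks of coding genes were lower. Its log10 p was -4.08, more significant than 49.4% of the peaks of coding genes. The second peak, at chr5:121153187-121154026, had a fold enrichment of 26.6 (log10 p -5.48). It lay in intron 7 of 15 of the longest coding transcript, wholly in an exon of 1 retained-intron transcript, and covered 0 nt of any protein-coding isoform. The 2 values of this peak, 26.6 and -5.48, were shared to the printed digit by 70 peaks of the list, itself included. The high fold enrichment of Ptpn11 thus belonged to an intron of its coding transcript. The peak on its mature mRNA was among the weaker ones in fold enrichment, though not in significance.

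In Ptpn6 (ENSMUSG00000004266, minus strand) the peak at chr6:124720707-124721065 began 43 nt past the stop codon and ran to the end of the transcript, over 359 of 401 nt of the 3' UTR. Its fold enrichment was 3.25 and its log10 p -86.0, more significant than 97.0% of the peaks of coding genes. A second peak at chr6:124738505-124738654 covered the first exon, with 113 nt of 5' UTR and 8 nt of coding sequence on the longest coding transcript. It had the higher fold enrichment (4.27) but a log10 p of -1.95, and 27 peaks of the list, itself included, had this pair of values. The most significant peak of SHP-1 thus covered most of a short 3' UTR from just past the stop codon, whereas that of SHP-2 on the mature mRNA lay near the far end of a long one.

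The sequences of these peaks are shown on the strand of the gene with DRACH matches in capitals, as the letters the m6A writer prefers. For peaks in untranslated regions 29 nt are given, around the match nearest to the middle of the peak, and for the Ptpn11 intron peak the 150 nt with the most matches.
Ptpn11, 3' UTR (chr5:121130714-121130742, GRCm38, minus strand): gacgcactcagcTGACTttttgcccacgc
Ptpn11, intron 7 (chr5:121153554-121153703, minus strand): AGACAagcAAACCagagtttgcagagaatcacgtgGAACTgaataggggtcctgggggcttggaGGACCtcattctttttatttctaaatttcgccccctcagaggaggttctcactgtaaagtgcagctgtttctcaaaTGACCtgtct
Ptpn6, 3' UTR (chr6:124720856-124720884, minus strand): cttccacccgatAGACTgAGACCtgtggc
Ptpn6, 5' UTR (chr6:124738570-124738598, minus strand): gtctggatccctGAACAgctgtgccactc
The match shown for the 3' UTR peak of Ptpn11 was the only one in its 151 nt. Of 1532 coding-gene peaks within 10% of that length, 93.3% held at least 1. The intron peak of Ptpn11 held 14 matches in 840 nt, the 3' UTR peak of Ptpn6 held 7 in 359 nt and the first-exon peak held 3 in 150 nt. GGAC, the best known core of the motif, occurred 2 times in the 3' UTR peak of Ptpn6, 3 times in the intron peak of Ptpn11 and 0 times in the other 2 peaks.

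**Figure D2:**
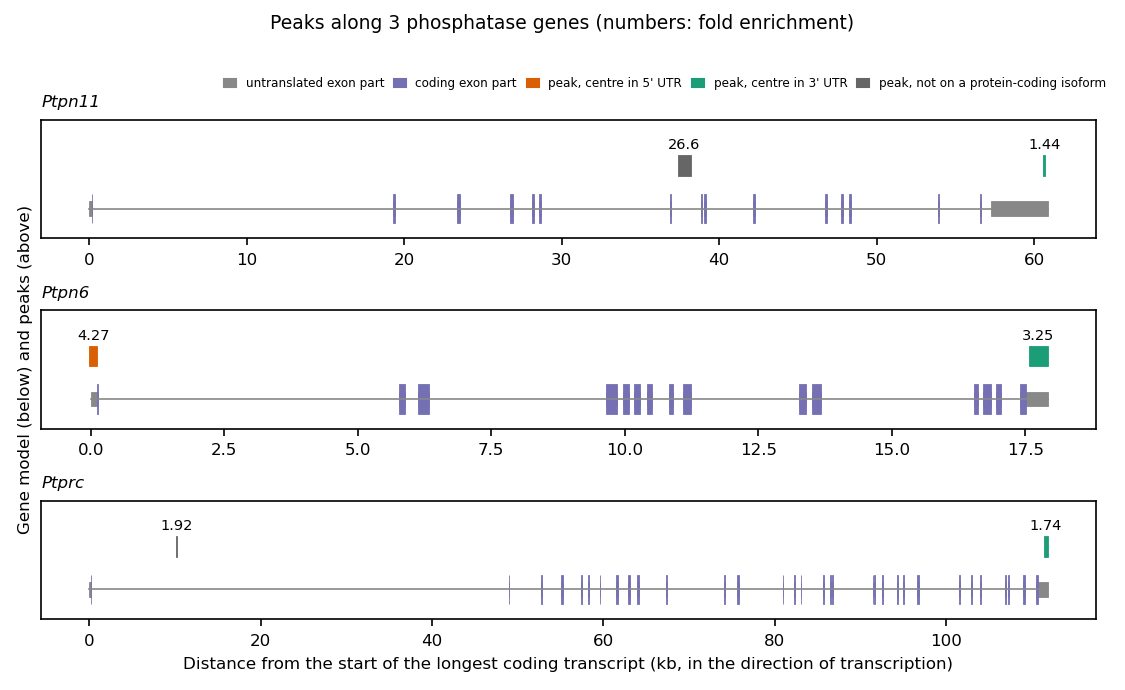
Peaks of Ptpn11, Ptpn6 and Ptprc along the longest coding transcript of each gene, as distance in kb from its start in the direction of transcription; thick blocks are coding and thin blocks untranslated parts of exons, boxes above are peaks coloured by where they lay, and the number over each is its fold enrichment. The Ptpn11 peak of 26.6 sits between exons, and each gene has a weaker peak in its last exon, at 1.44, 3.25 and 1.74.

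Ptprc (ENSMUSG00000026395, minus strand), which encodes CD45, had the most significant peak on a coding isoform in the family. It lay at chr1:138063400-138063850 in the last exon (33 of 33) and covered the terminal 438 nt of the longest coding transcript, with a fold enrichment of 1.74 (log10 p -123), more significant than 98.2% of coding-gene peaks. It held 13 DRACH matches in 451 nt. The second peak of Ptprc had a fold enrichment of 1.92 (log10 p -5.19) and touched no exon of Ptprc. It lay in intron 2 of 32 and inside A130071D04Rik, a gene model on the same strand whose status the annotation leaves to be checked by experiment. All of its 120 nt were repeat-masked, the highest share in the family, and it held 0 DRACH matches, whereas 87.5% of 1271 coding-gene peaks of similar length held at least 1. The match nearest to the middle of the 3' UTR peak is shown to set it beside those of the SH2 phosphatases.
Ptprc, 3' UTR (chr1:138063623-138063651, minus strand): acaggggcatgaAAACTtgtttgtactga

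The endoplasmic reticulum and nuclear phosphatases that act on JAK kinases each had 1 peak, in the 3' UTR. Ptpn1 (PTP1B), best known for acting on the insulin receptor and JAK2, was enriched 1.44-fold (log10 p -10.4) at chr2:167979026-167979355, close to the end of its transcript (3854 to 4183 of 4213 nt). Ptpn2 (TC-PTP), which acts on JAK1, JAK3 and STAT proteins, had a fold enrichment of 2.5 (log10 p -6.79). Its peak also reached the end of the longest coding transcript (2495 to 2667 of 2667 nt). Neither was strong, and both ended far from the stop codon, with centres 2552 and 1275 nt past it.

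The PEST-type phosphatases Ptpn12, Ptpn18 and Ptpn22 all had more than 1 peak. Ptpn22 (PEP), which works with the kinase CSK to restrain SRC family kinases, had a peak over the stop codon that was enriched 1.99-fold (log10 p -46.7). It covered 274 nt of coding sequence and all 207 nt of the 3' UTR. A second peak, with a fold enrichment of 4.93 (log10 p -9.48), lay in intron 13 of 20 and in a retained-intron transcript. Ptpn12 (PTP-PEST), a regulator of adhesion, had 2 peaks in its 3' UTR with fold enrichments of 1.34 and 2.32 and log10 p of -2.46 and -10.7, the second running to the transcript end.

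Ptpn18 (ENSMUSG00000026126, PTP-HSCF) had 4 peaks, the most of any member, and the highest fold enrichment of the family. The peak at chr1:34464047-34466799 had a fold enrichment of 140, higher than 99.1% of coding-gene peaks, and a log10 p of -131. It lay in intron 5 of 14 of the longest coding transcript, over 2753 nt of a retained-intron transcript. The peak at chr1:34469637-34469726 (fold enrichment 5.06, log10 p -2.27) touched no exon of Ptpn18 and lay in an exon of Gm28417, which is transcribed from the opposite strand. The other 2 peaks overlapped each other at the 3' end of the coding sequence, between exons 11 and 15 of 15. They had fold enrichments of 1.76 and 2.24 and log10 p of -38.3 and -68.1, and both also overlapped Gm28417. The list does not say whether strand was used in peak calling, so reads of the 2 genes cannot be told apart there. As in Ptpn11, the strong peaks of Ptpn18 were intronic and the weaker ones were on the mature mRNA. The 150 nt of the 140-fold peak with the most matches are shown because the letters AAACC recur in them within runs of A, and 1 match in each of the exonic peaks is given for comparison.
Ptpn18, intron 5 (chr1:34464220-34464369, plus strand): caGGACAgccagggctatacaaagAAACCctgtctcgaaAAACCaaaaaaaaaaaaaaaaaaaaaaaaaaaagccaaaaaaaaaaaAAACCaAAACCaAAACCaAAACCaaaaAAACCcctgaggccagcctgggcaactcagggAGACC
Ptpn18, exon 13 (chr1:34472790-34472818, plus strand): cctccccatggcTGACActtacgctgtgg
Ptpn18, exon 14 (chr1:34473368-34473396, plus strand): cctacgaagaagTAACAgatggagcacag
Over the whole 140-fold peak 32.1% of bases were repeat-masked, and it held 46 matches in 2753 nt (16.7 per kb).

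Among the FERM-domain phosphatases, which sit at the membrane-cytoskeleton interface, 3 of 5 had a peak. Ptpn4 had 3 peaks, all weaker. Those in the 3' UTR, at chr1:119652467-119652796 and chr1:119655042-119655102, had fold enrichments of 2.66 (log10 p -8.80) and 1.68 (log10 p -1.63), the first at the end of a transcript of 10874 nt. The peak in coding exon 14 of 27, at chr1:119707823-119707883, had a fold enrichment of 1.65 (log10 p -3.74). It is short enough to print whole, and its 1 match lies near its 3' end.
Ptpn4, exon 14 (chr1:119707823-119707883, minus strand): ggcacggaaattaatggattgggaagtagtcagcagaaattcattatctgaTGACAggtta
Ptpn3 had 1 peak at the end of its 3' UTR (fold enrichment 3.79, log10 p -2.31). Ptpn21 had 1 strong peak, with a fold enrichment of 12.1 (log10 p -10.1), which spanned 4680 nt of the genome and covered 106 nt of coding exons 13 and 14. Ptpn13 and Ptpn14 had no peak.

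Of the remaining cytosolic members, Ptpn23 (HD-PTP), a scaffold of endosomal sorting, had a peak of 1.96 (log10 p -3.06) just past its stop codon and a peak of 4.74 in exons 7 and 8 of 25. The latter had a log10 p of -1.34, the weakest of the 39. Ptpn9 (MEG2), which binds lipids through a SEC14 domain, had 1 peak in its first exon with a fold enrichment of 4.11 (log10 p -2.58). The kinase-interaction-motif phosphatases act on ERK and p38. Ptpn7 (HePTP), the haematopoietic one, had a 90 nt peak at chr1:135145108-135145197, near the end of its transcript, enriched 1.37-fold (log10 p -7.02). Ptpn5 (STEP), known from neurons, had a strong peak of 9.48 with a log10 p of -1.69, and 845 peaks of the list shared that pair of values. Ptprr, the other one of this type, and Ptpn20 had no peak.

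Of the 15 peaks of receptor-type members 8 were strong, none of them in Ptprc, against 5385 of 18250 peaks of coding genes. The LAR-type adhesion phosphatases Ptprd and Ptprs had strong peaks. That of Ptprd, at chr4:75941238-78211961, had a fold enrichment of 47.4 (log10 p -10.3), spanned 2270724 nt and covered all annotated exons of the gene. Ptprs had a peak of 32.2 (log10 p -6.79) over 9531 nt, of which 227 nt were coding exons, and a weaker 3' UTR peak of 4.34 (log10 p -8.54) that began 90 nt past the stop codon. The peaks of the carbonic-anhydrase-like receptors were of the same kind, with 53.1-fold (log10 p -55.0) for Ptprg at chr14:11553532-12211590, over exons 1 to 20 of 30, and 17.1-fold (log10 p -3.33) for Ptprz1 over all of its exons. Such spans include introns, and which exons inside them held the reads is not shown by the list.

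Ptprm, a homophilic adhesion molecule, had 3 peaks whose fold enrichments differed widely at similar significance. The 3' UTR peak (chr17:66666947-66667276) was enriched 2.69-fold (log10 p -10.1), the wide peak over exons 1 to 3 (chr17:67095481-67354128) 8.16-fold (log10 p -12.5), and the peak at exon 18 (chr17:66813496-66814400) 43.6-fold (log10 p -9.45). The last covered 905 nt of the genome but 27 nt of protein-coding isoforms. Its relatives Ptprk, Ptprt and Ptpru had no peak. Of the receptors with fibronectin repeats, Ptprj (CD148) had the only strong peak of the family centred in a 3' UTR, at chr2:90429754-90433813, with a fold enrichment of 47.4 (log10 p -23.7). It covered the terminal 925 nt of the longest coding transcript. Ptprh had 13.3 (log10 p -2.50), a pair of values shared by 367 peaks, and Ptpro had 2.13 (log10 p -2.94) in its 3' UTR. Ptpre, which acts on SRC family kinases, had a peak of 2.84 (log10 p -3.67) across exons 3 to 5. A 61 nt peak of 1.5 (log10 p -1.68) inside that span lay off its exons, on 5830432E09Rik, an antisense transcript that the wider peak also overlapped. Matches from peaks of the receptors are printed to set them beside those of the SH2 phosphatases.
Ptprj, 3' UTR (chr2:90433369-90433397, minus strand): ctttggcacaatGGACCtgctggctttgt
Ptprm, 3' UTR (chr17:66667117-66667145, minus strand): tgtaatgtacaaGGACAcattgtatgagt
Ptprg, exon 9 (chr14:12142412-12142440, plus strand): ggtgcagcctctGAACCAGACAgctctgc
Ptprd, exon 29 (chr4:75982065-75982093, minus strand): aagagggaagtgAGACAattccagttcac
The matches of Ptprj and Ptprm have the GGAC core, and the window of Ptprg holds 2 matches side by side.

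No peak was listed for 13 members. These were Ptpn13, Ptpn14, Ptpn20, Ptpra, Ptprb, Ptprf, Ptprk, Ptprn, Ptprn2, Ptprq, Ptprr, Ptprt and Ptpru. Their longest coding transcripts had a median length of 6177 nt (3153 to 12112), against 5141 nt (1559 to 10874) in the 24 members with a peak, and their exons numbered 30 at the median, against 21. As background, Ptprb (VE-PTP) is known from endothelium, Ptprq from the inner ear, Ptprn and Ptprn2 from secretory granules and Ptpn20 from testis, Ptprf, Ptprk, Ptprt and Ptpru are adhesion receptors, and Ptpra is a widely expressed phosphatase of SRC family kinases. Little RNA and little m6A cannot be told apart in a gene absent from the list.

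The position of peaks on mRNA was compared across members. Of 39 peaks, 33 could be placed on the longest coding transcript by the centre of their exonic part. In 16 (48.5%, exact 95% interval 30.8 to 66.5) the centre lay in the 3' UTR, against 56.5% of 15715 peaks of coding genes. In another 16 it lay in the coding sequence, against 33.6%, and in 1, that of Ptpn6, in the 5' UTR (3.03%, against 9.95%). All 16 peaks of the 3' UTR were in the last exon, as were 8233 of the 8878 coding-gene peaks centred in a 3' UTR. Within 200 nt of the stop codon lay 4 centres (12.1%, interval 3.40 to 28.2), those of Ptpn12, Ptpn18, Ptpn22 and Ptpn23, against 22.3%. The Ptpn6 centre missed this window, at 222 nt. The intervals cover counting error only, and each of the 3' UTR and stop codon shares of all coding genes lies inside that of the family.

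**Figure D3:**
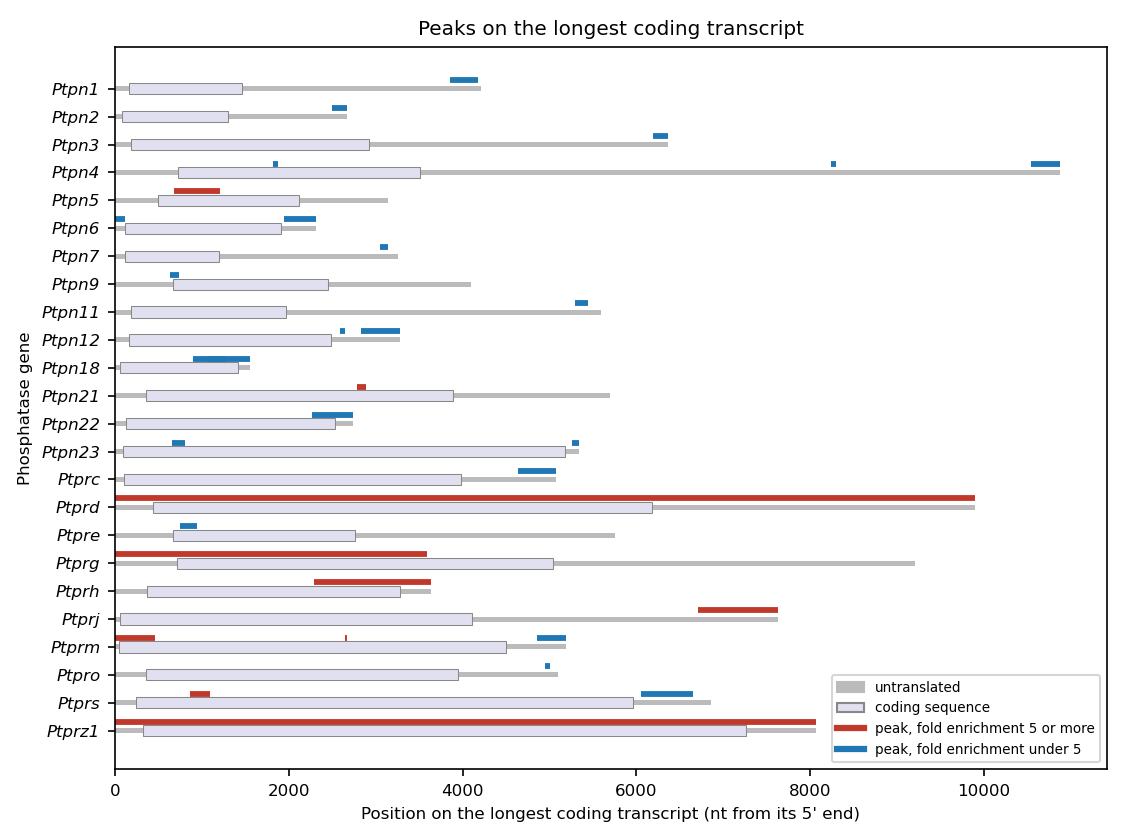
The 33 peaks that could be placed, drawn above the longest coding transcript of each of the 24 genes, in nt from its 5' end; boxes are coding sequence, and red lines mark a fold enrichment of at least 5 and blue lines a lower one. Blue lines gather at the 3' ends, for example in Ptpn1, Ptpn4, Ptpn6 and Ptprc. Red lines lie at least partly over coding sequence except in Ptprj, and those of Ptprd, Ptprh and Ptprz1 also cover the 3' UTR.

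By the centre of the peak, few strong peaks were placed in the 3' UTR. Of the 16 peaks centred in the 3' UTR, 1 was strong and the median fold enrichment was 2.23, whereas 9 of 16 in the coding sequence were strong with a median of 8.82. Over all coding genes 18.5% of peaks centred in the 3' UTR and 34.5% of those in the coding sequence were strong. The 9 strong peaks of the family were placed by their centre alone and include the 4 peaks that spanned over 100 kb. Those of Ptprd and Ptprz1 covered the whole transcript with its 3' UTR. That of Ptprh covered 994 nt of coding sequence and all 356 nt of the 3' UTR. The 43.6-fold peak of Ptprm had 27 of its 599 exonic nt on a protein-coding isoform, and that of Ptprs 227 of 1740. Where the reads lay inside such spans is not shown. Peaks that touched no protein-coding isoform were found in Ptpn11, Ptpn18, Ptpn22, Ptprc and Ptpre. There were 6 of these (15.4%, against 9.85% of coding-gene peaks), and 3 were strong. Of the 9 peaks that the authors' region column placed in the 5' UTR, 1 had its centre there and 8 in the coding sequence. The same column placed 3 of the 13 strong peaks in the 3' UTR (23.1%), against 34.2% of the strong peaks of coding genes.

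Strong peaks of the family were also the wider ones at the median. The 13 strong peaks spanned a median of 4680 nt of the genome and 1438 exonic nt, and 1 of them was at most 500 nt wide. The 26 weaker peaks spanned a median of 330 nt, and 19 were at most 500 nt wide. Over all coding genes the medians were 869 and 210 nt. In 8 of the 13 strong peaks less than 50% of the span's exonic bases, or none, belonged to a protein-coding isoform. Those of Ptpn5 (534 of 1076 nt) and Ptprd (11001 of 22822 nt) lay just under that limit. Strong peaks that touched no protein-coding isoform made up 23.1% in the family, against 17.7% over coding genes. Exons of other genes lay inside 8 of the 39 peaks, those named above in Ptpn18, Ptprc and Ptpre and the wide peaks of Ptprd and Ptprg. Neither this count nor that of strong peaks under 50% was made over all coding genes, so neither describes the family as such. In 4 members (Ptpn11, Ptpn18, Ptprm and Ptprs) a strong and a weaker peak occurred together, and in each a weaker one reached the last exon.

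Fold enrichment and significance ranked the peaks differently. The log10 p was at or below -3 in 10 of 13 strong and 18 of 26 weaker peaks. The most significant were those of Ptpn18 (-131, fold enrichment 140), Ptprc (-123, 1.74) and Ptpn6 (-86.0, 3.25). In 7 of the 13 strong peaks (53.8%), those of Ptpn5, Ptpn11, Ptprd, Ptprh, Ptprm, Ptprs and Ptprz1, the same pair of fold enrichment and log10 p occurred in at least 10 peaks of the list, against 60.9% of 5385 strong peaks of coding genes. Among weaker peaks the shares were 11.5% (3 of 26) and 7.85%. The strong peaks of Ptpn18 at 140, Ptprg, Ptprj and Ptprm at 8.16 had values found once in the list. What the repeated pairs reflect was not tested.

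**Figure D4:**
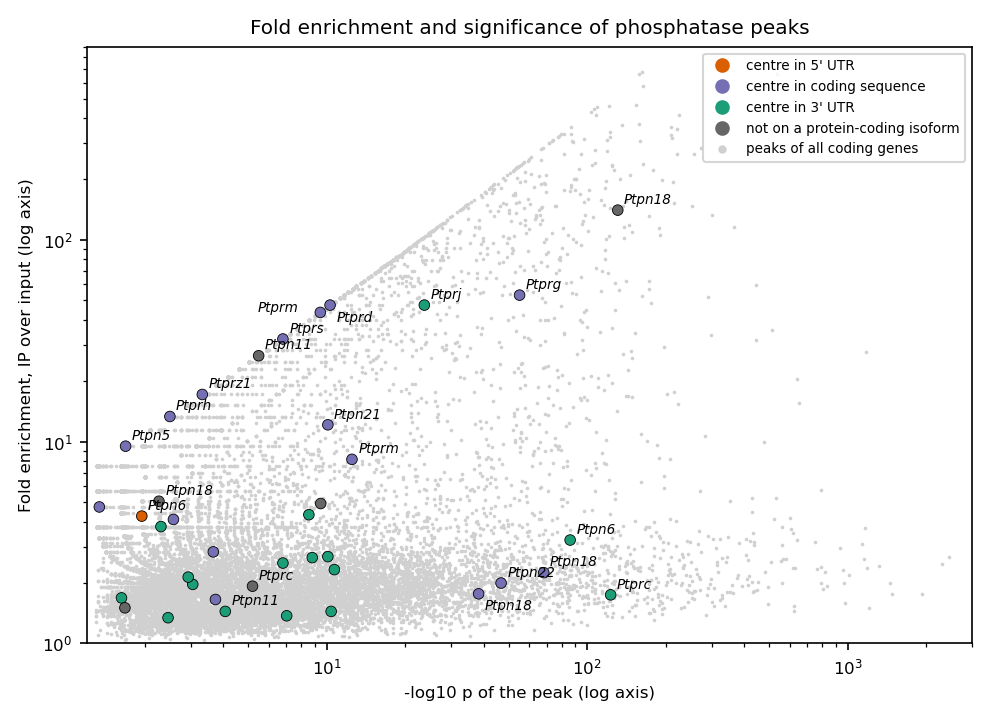
Fold enrichment against -log10 p (both log axes) for the 39 phosphatase peaks, coloured by where they lay, over the 18250 peaks of coding genes in grey. The peaks of Ptpn5, Ptprh, Ptprz1, Ptpn11, Ptprs, Ptprm (43.6) and Ptprd lie along the upper edge of the cloud, where each log10 p has its highest fold enrichment, whereas the most significant peaks of Ptprc and Ptpn6 lie far to the right at low fold enrichment.

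The sequence of the peaks was examined on the strand of the gene. DRACH occurred in 35 of 39 peaks (89.7%), against 92.3% of coding-gene peaks, and at 20.4 sites per kb, against 19.8. The density was 20.7 per kb in strong and 18.4 per kb in weaker peaks of the family, against 19.8 in either class over coding genes. Of the 53250 nt in the strong peaks, Ptprd gave 22822, Ptprz1 14245 and Ptprg 5250. The density of the strong class thus rests mostly on these wide peaks, and it was not computed without them. The 4 peaks without a match were the intronic peaks of Ptprc and Ptpn18 (90 nt), the 61 nt peak of Ptpn4 in the 3' UTR and the 60 nt peak of Ptpro. At about 61 nt, 69.3% of 2005 coding-gene peaks held a match. The median GC content was 47.3%, against 47.9%. GC content ran from 28.3% in the intron peak of Ptpn22 to 76.7% in the first-exon peak of Ptpn9. The family thus stood close to other coding genes in these sequence measures.

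Genes that work with these phosphatases, and their relatives, were set beside them and beside all coding genes, of which 46.3% had a peak and 43.4% of those a strong one. A list of 60 other genes of the cysteine phosphatase families included the dual-specificity phosphatases and the myotubularins. Being listed does not mean that the product is an active enzyme. Of these genes 39 had a peak (65%) and 14 of those a strong one (35.9%). The highest fold enrichments were at Ssh2 (415), Sbf2 (101) and Tns1 (36.0). Of 31 partners of SHP-1, SHP-2 and CD45, which include GAB adaptors, JAK and SRC family kinases, 24 had a peak (77.4%) and 7 of those a strong one (29.2%), led by Cbl (81.6), Yes1 (66.4) and Skap2 (56.9). Of 29 inhibitory receptors with ITIMs, the docking sites of SHP-1, 21 had a peak (72.4%) and 2 of those a strong one (9.52%), Pecam1 (235) and Siglecg (72.1), and the next highest was Cd300a at 3.21. All 3 lists thus lay above all coding genes in the share with a peak and below them in the share with a strong one. The median fold enrichments of peaks were 2.25, 1.9 and 1.77, against 3.25 in the phosphatase family and 2.37 over coding genes. The differences between these lists were not tested.

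**Figure D5:**
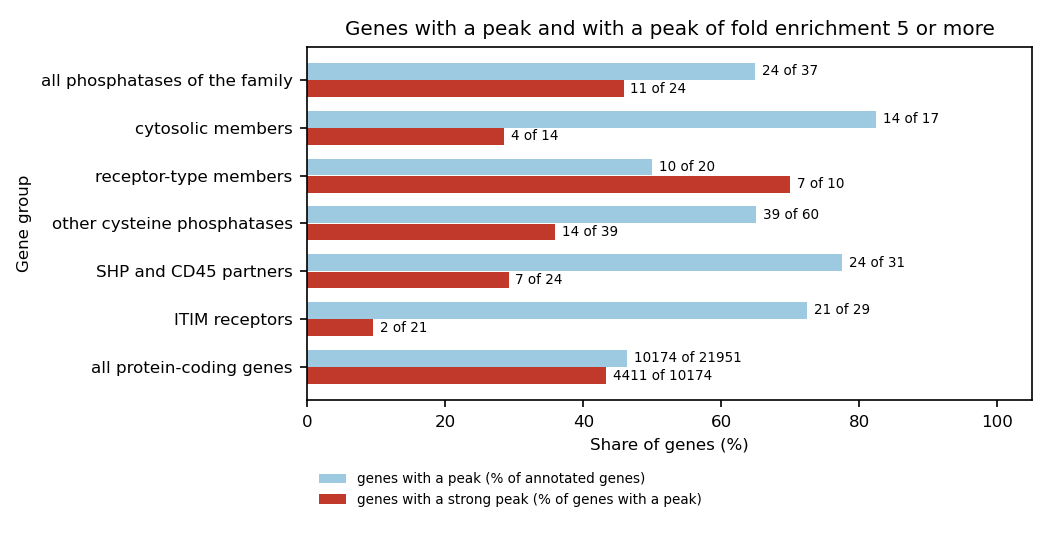
Share of annotated genes with a peak (blue, in %) and share of genes with a peak that had one of fold enrichment 5 or more (red, in %), for the phosphatase family, its cytosolic and receptor-type members, 3 related lists and all protein-coding genes, with counts beside the bars. The lists lie above all coding genes (46.3%) in the share with a peak, the receptor-type members by the least (50%). In the share with a strong peak the receptor-type members (70.0%) and the whole family (45.8%) lie above all coding genes (43.4%), and the cytosolic members and the related lists lie below.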

How the data were processed

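MeRIP-seq of splenic NK cells gave 4 libraries in 2 groups. After trimming, the authors mapped reads with HISAT2 (build GRCm38 per the labels), called peaks with exomePeak and annotated them with ChIPseeker; how replicates were combined is not given in the sources used here. Fold enrichment was deposited as a ratio of immunoprecipitate over input, and significance was deposited as a score, the log10 of the p-value from peak calling. The deposited list held 0 columns of values per sample, so depth is unknown, and neither the planned count test nor any test between libraries was run. Of 20751 rows 24 were exact repeats and were dropped.

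Gene models were GENCODE M21 for GRCm38, with sequence from the GRCm38 assembly. The exonic part of a peak is the overlap of its span with exons of its gene, and its centre gave its place on the longest coding transcript. Repeat-masked bases are those in lower case in the assembly. DRACH was counted with overlaps, on the strand of the gene. Placement and motif counting were tested on simulated data. Python 3.11.15 and pysam 0.24.0 were used. Shares have exact binomial (Clopper-Pearson) 95% intervals. Members and lists were chosen with earlier results of these data known. Every member with a peak is named, and of related lists the 3 genes with the highest fold enrichment. Coordinates and sequences were limited to Ptpn11, Ptpn6, Ptprc, the 3 members with the highest and the 3 with the lowest maximum fold enrichment, and those with 3 or more peaks. A marker gene and a sequence withheld for evaluation are not reported here.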

Additional observations from a re-analysis of the deposited data

How the results depend on the processing

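Of 34 alternatives for 7 results, 30 stayed within 1.5 times the count or within the 95% interval of the value, and 4 did not. The number of members with a peak ran from 19 to 24, of peaks from 27 to 39 and of members with a strong peak from 9 to 16. The share of centres in the 3' UTR was 77.8% by the centre of the genomic span, since centres in introns then drop out. The share near the stop codon was 3.03% in a window of 100 nt. GGAC had 3.12 sites per kb, but it makes up only a part of the DRACH matches. That alternative was bound to fall outside the DRACH interval and says nothing on how stable the density is. DRACH density was 19.0 per kb without Ptprd, Ptprz1 and Ptprg, an alternative chosen after seeing the data, as was the limit of 100 kb on the span, with which the 3' UTR share was 55.2%. No paired analysis was possible because the list gives no value per library, and leaving out each replicate was not run for the same reason. The depth behind single peaks is unknown.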

Other observations

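Ptprv, a receptor-type relative annotated in GRCm38 as a processed transcript and so outside the family as defined here, had 1 peak at chr1:135111076-135112229 enriched 27.4-fold (log10 p -61.9), over 391 exonic nt.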
